A study of Mus musculus with 12 samples.

Results

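The 10 meiotic and germ-cell genes described here, across 6 doses of dTAG13 in mouse embryonic stem (mES) cells, are Dazl, Ddx4, Mael and Stk31, Sycp1, Sycp3 and Hormad1, and Stag3, Smc1b and Rec8. They were chosen by symbol as genes of the germline with CpG-rich promoters, and they make up 10 of the 24421 genes in the counts table. The cells were of the B6 strain, grown in 2i and LIF, and carried at the Brg1 locus a knock-in of the FKBP12-F36V degron, a protein tag that lets dTAG13 send the fusion protein to the proteasome. BRG1, encoded by Smarca4, is the main ATPase of the mSWI/SNF chromatin remodeler in these cells. Total RNA was sequenced after 24 h with 0.3, 1, 3, 10 or 100 nM dTAG13, and in control cells with the same knock-in that received vehicle only, with 2 libraries per group and 12 in all. All groups, controls included, had the tagged BRG1, and knock-in lines were picked as colonies from single cells. No untagged cells were analysed here, so an effect of dTAG13 itself and an effect of losing BRG1 cannot be told apart.

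In the mouse these genes act mainly in germ cells. Some encode RNA-binding and small-RNA proteins, others the proteinaceous axis and zipper that join homologous chromosomes in meiosis, or the cohesin subunits that replace the somatic ones there. In embryonic and somatic cells such promoters are commonly held down by DNA methylation and by a variant Polycomb complex, PRC1.6, whose subunits MGA and MAX recognise E-boxes and whose E2F6 recognises E2F sites.

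The study's question was how chromatin and transcription respond to graded BRG1 loss, and for these genes the comparison asks whether germline transcripts changed with dose. DNA methylation was not measured in these files, and each of the genes had counts in both control libraries. On the per-length scale of RPKM, read pairs scaled to exon length and library size, the control means ran from 0.803 for Smc1b to 21.3 for Hormad1, at percentiles 49.1 to 86.3 of all genes with a count. The group is therefore called germline genes here, with no statement on methylation or silencing. Below Hormad1 came Ddx4 (10.5), Stag3 (9.49) and Dazl (9.14), whose control libraries overlapped, then Rec8 (4.99) and Stk31 (4.74), which overlapped each other. Sycp1 (3.46) overlapped Sycp3 (2.55), Sycp3 overlapped Mael (2.11), and Smc1b lay below them all.

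Total counts per library ran from 4663484 to 6375582, and Rn45s, a ribosomal RNA precursor, took 10.5 to 19.4% of them. The degron acts on protein, so the Smarca4 transcript does not check the labels; it lay between 63.5 and 71.3 RPKM in all libraries, with a log2 fold change of 0.16 ± 0.055 (SE) at 100 nM (adjusted p = 0.0389, edgeR's quasi-likelihood test). The sample numbers in the labels repeat between the libraries of 0.3 and 3 nM and the other 8, which include both controls, and whether they were handled as a separate set is not stated. Such a set cannot be told apart from these 2 doses, and values within each set are given beside the results. Summed levels of 5 pluripotent-cell markers were 1040 to 1070 RPKM in control and 1070 to 1110 at 100 nM. None of the 5 passed both an adjusted p of 0.05 and 1.5-fold at 100 nM, but 3 passed the adjusted p. Of the 11378 genes tested, 10.1% passed that adjusted p on the higher side and 13.3% on the lower. Nanog was at 0.52 (adjusted p = 1.79e-08), Pou5f1 at -0.17 (adjusted p = 0.0301) and Esrrb at -0.17 (adjusted p = 0.0433), named after their values were seen.

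The windows around the transcription start, 250 bases before to 50 after, were read from RefSeq on GRCm38.p6, the mm10 assembly, and were found for 10 of 10 germline genes. Both strands were searched for the E-box CACGTG, which reads the same on each strand, and for the E2F-type motif GGCGGGA, which reads TCCCGCC on the other strand. The bases before the start are shown for the 4 genes called higher at 3, 10 and 100 nM and for the 2 that did not follow dose, 5′ to 3′ on the gene's strand, with these motifs in capitals.
Ddx4, chr13:112652311-112652560, minus strand: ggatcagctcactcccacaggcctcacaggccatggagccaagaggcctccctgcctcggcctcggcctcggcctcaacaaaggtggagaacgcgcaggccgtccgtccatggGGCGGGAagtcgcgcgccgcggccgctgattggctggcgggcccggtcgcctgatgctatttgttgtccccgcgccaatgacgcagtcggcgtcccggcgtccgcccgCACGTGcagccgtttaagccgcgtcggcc
Stag3, chr5:138280259-138280508, plus strand: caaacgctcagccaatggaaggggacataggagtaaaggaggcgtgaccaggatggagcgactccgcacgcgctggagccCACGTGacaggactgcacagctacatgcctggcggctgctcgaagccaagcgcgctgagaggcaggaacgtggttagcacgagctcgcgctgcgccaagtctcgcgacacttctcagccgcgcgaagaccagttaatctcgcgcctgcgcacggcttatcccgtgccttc
Mael, chr1:166238745-166238994, minus strand: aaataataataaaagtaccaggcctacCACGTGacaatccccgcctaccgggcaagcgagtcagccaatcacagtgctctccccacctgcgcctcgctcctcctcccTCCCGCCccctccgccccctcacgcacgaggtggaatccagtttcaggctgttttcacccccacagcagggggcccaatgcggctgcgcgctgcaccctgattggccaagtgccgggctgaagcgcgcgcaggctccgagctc
Sycp1, chr3:102936101-102936350, minus strand: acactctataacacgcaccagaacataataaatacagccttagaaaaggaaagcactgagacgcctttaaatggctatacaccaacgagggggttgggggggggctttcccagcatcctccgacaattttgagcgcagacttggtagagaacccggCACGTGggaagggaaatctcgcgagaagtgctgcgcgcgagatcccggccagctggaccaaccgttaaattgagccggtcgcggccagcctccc
Sycp3, chr10:88459337-88459586, plus strand: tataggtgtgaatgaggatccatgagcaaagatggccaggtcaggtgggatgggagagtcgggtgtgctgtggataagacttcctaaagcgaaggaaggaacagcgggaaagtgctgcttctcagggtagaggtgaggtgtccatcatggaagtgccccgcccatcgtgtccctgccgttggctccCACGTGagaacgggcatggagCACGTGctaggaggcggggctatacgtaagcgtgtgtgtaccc
Rec8, chr14:55617916-55618165, plus strand: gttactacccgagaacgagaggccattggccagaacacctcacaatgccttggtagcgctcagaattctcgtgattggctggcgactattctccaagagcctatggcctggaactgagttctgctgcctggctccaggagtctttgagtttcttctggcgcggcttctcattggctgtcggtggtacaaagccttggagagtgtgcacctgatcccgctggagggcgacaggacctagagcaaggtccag

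CACGTG was found in the 300-base windows of 7 of the 10 genes (70%), against 11.1% of the 8858 tested genes with a window and 7.15% of all 32851 windows. In Ddx4 it began 29 bases before the start, in Sycp1 94, in Stk31 120, in Stag3 170 and in Mael 223. Sycp3 and Hormad1 held 2 copies each, at 64 and 43 and at 57 and 20 bases before the start. Dazl, Smc1b and Rec8 held none. The E2F-type motif was found in Ddx4, Mael and Hormad1, which is 30% of the genes against 22.7% of tested genes. Among other meiotic genes CACGTG was found in 14.3% of 28 windows, and among piRNA pathway genes in 35.3% of 17. These matches describe letters in a window and were not tested as sites.

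The CpG content, which the choice of the genes had used, ran from an observed-to-expected ratio of 0.666 in Sycp3 to 1.08 in Smc1b. The median of 0.788 lay beside 0.79 for tested genes and 0.384 for all windows, which places the germline promoters beside those of tested genes and above the middle window of all. Guanine and cytosine made up 56.7% of the Sycp1 window and 72.0% of the Ddx4 window.

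**Figure D1:**
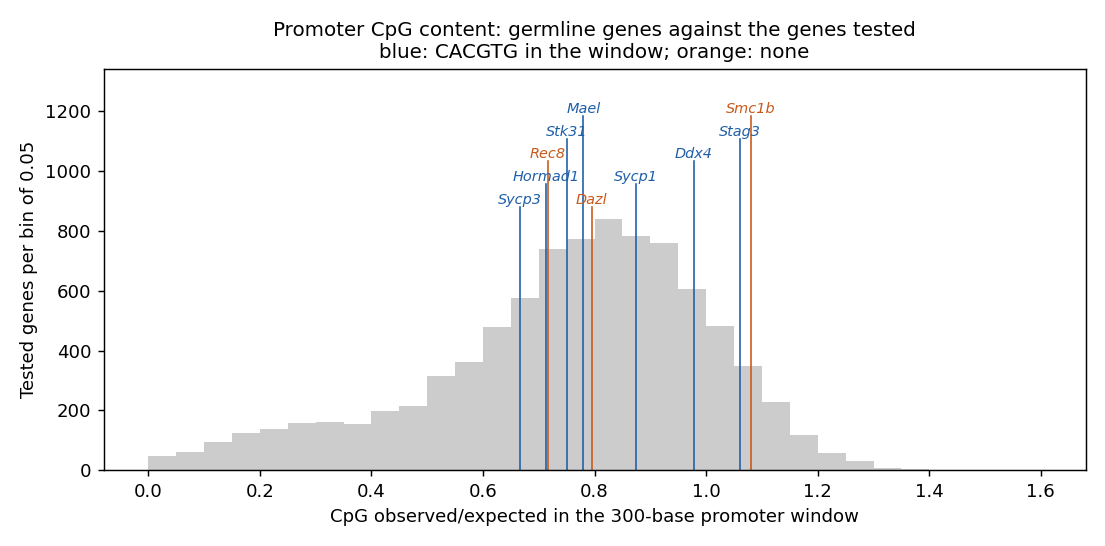
Grey bars count tested genes by the CpG observed-to-expected ratio of their 300-base promoter window, and vertical lines mark the 10 germline genes, blue with CACGTG and orange without. The germline genes lie between 0.666 and 1.08, within the main body of tested genes.

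Most of the germline genes rose with dTAG13. A gene was called at a dose when its Benjamini-Hochberg adjusted p in edgeR's quasi-likelihood test was under 0.05 and its change over 1.5-fold, with p-values adjusted over the 11378 genes that averaged 1 RPKM or more. At 10 nM, Dazl, Ddx4, Mael, Sycp1 and Stag3 were called higher, between 1.53-fold and 2.12-fold, and at 100 nM Ddx4, Mael, Sycp1, Stag3 and Smc1b, between 1.58-fold and 2.16-fold. Sycp3 and Rec8 did not pass the test at any dose. All 10 genes entered the test, but Smc1b, at a mean of 1.12 RPKM over 12 libraries, did so only through its higher doses. In bulk RNA, more cells with a transcript and more transcript per cell cannot be told apart.

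By count, no germline gene was called by edgeR or DESeq2 at 0.3 nM, where edgeR called 0% of tested genes higher. Ddx4 alone passed an unadjusted p of 0.05 there, as did 3.17% of tested genes on the higher side. None was called at 1 nM either, where 0.185% of tested genes were called higher, while 6 passed the unadjusted p (background 6.03%). The number called higher was 4 of 10 with 3 nM (background 1.52%), 5 with 10 nM (3.01%) and 5 with 100 nM (4.37%). None was called lower by edgeR or DESeq2 at any dose, and none was lower past the unadjusted p. Of tested genes 0.0176%, 0.729%, 2.38%, 4.92% and 6.83% were called lower at rising doses. Without the fold minimum, 0 genes were past the adjusted p for 0.3 nM (0% of tested genes), 2 for 1 nM (0.773%), 6 for 3 nM (4.15%), 7 for 10 nM (7.87%) and 6 for 100 nM (10.1%). The median log2 fold change of the 10 genes was 0.17, 0.34, 0.52, 0.73 and 0.59 at rising doses, beside medians between -0.0014 and 0.0050 for all tested genes. All 5 comparisons share the same 2 control libraries. Without control replicate 1 the number called was 2 at 3 nM and 2 at 100 nM, and without 100 nM replicate 2 it was 3 at 100 nM.

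**Figure D2:**
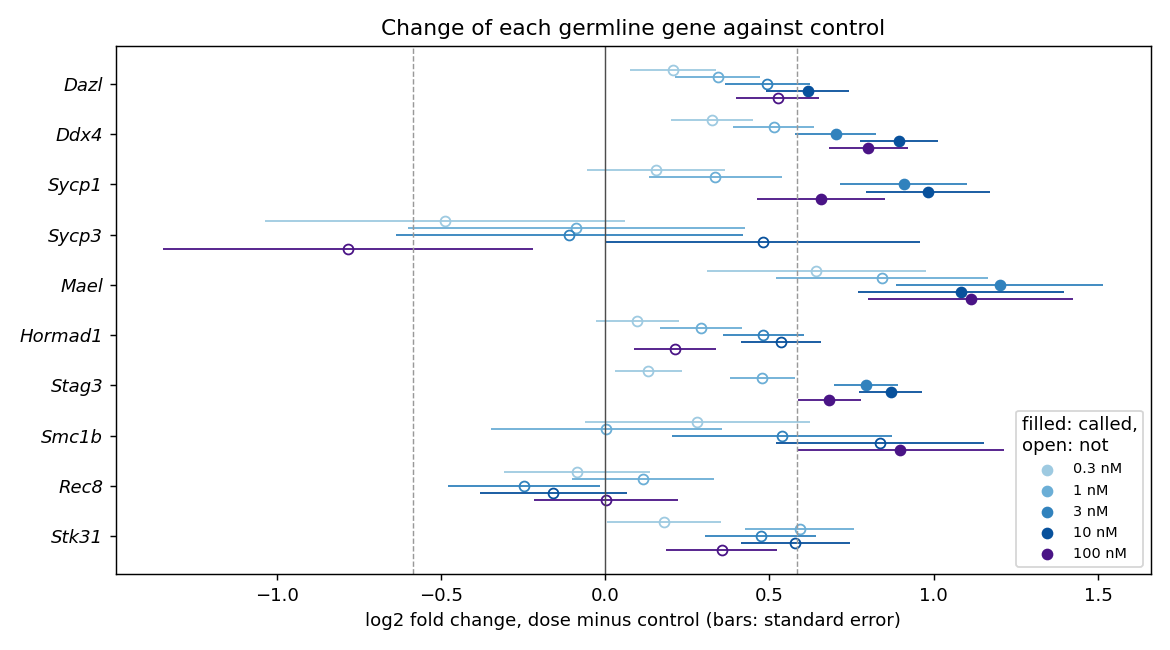
Log2 fold change against control (x axis) for each germline gene and dose, with bars of 1 standard error and dashed lines at 1.5-fold; filled points passed the adjusted p of 0.05 and 1.5-fold. Filled points appear from 3 nM on and all lie to the right, while Sycp3 has the widest bars and Rec8 stays near 0.

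As a second test that uses all doses at once, a straight line was fitted through the doses in rank order. The slope was positive past an adjusted p of 0.05 for 8 of 10 genes, where 14.9% of tested genes rose. It ranged from 0.07 log2 units per dose step in Hormad1 to 0.21 in Mael. The exceptions were Sycp3 (-0.03 ± 0.094 SE, adjusted p = 0.852) and Rec8 (-0.02 ± 0.037, adjusted p = 0.788). Of the 7 genes with CACGTG, 6 had a rising slope, and of the 3 without it, 2 did.

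Ddx4, the germ-cell RNA helicase also known as Vasa (22 exons at chr13:112598333-112652310), had 11.3 and 9.65 RPKM in control, 14.4 and 11.8 with 0.3 nM, 15.2 and 14.6 with 1 nM, 15.96 and 17.98 with 3 nM, 20.8 and 18.1 with 10 nM and 17.7 and 18.8 with 100 nM. Every treated library lay above both controls. The log2 fold change was 0.51 ± 0.12 (SE) at 1 nM (adjusted p = 0.022), 0.70 ± 0.12 at 3 nM (adjusted p = 0.000386), 0.89 ± 0.12 at 10 nM (adjusted p = 4.39e-06) and 0.80 ± 0.12 at 100 nM (adjusted p = 1.33e-05). Thus Ddx4 was past the adjusted p from 1 nM and past 1.5-fold from 3 nM. Its window carries 1 CACGTG and 1 GGCGGGA.

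Dazl, an RNA-binding translational regulator of germ cells (chr17:50279393-50293620), had 8.29 and 9.99 RPKM in control, 10.7 and 10.4 with 0.3 nM, 12.04 and 11.2 with 1 nM, 11.7 and 13.98 with 3 nM, 13.1 and 14.98 with 10 nM and 12.6 and 13.8 with 100 nM. Its treated libraries also lay above both controls at each dose. The change was smaller than that of Ddx4 at each dose in point estimate, 0.62 ± 0.13 at 10 nM (adjusted p = 0.000896) and 0.53 ± 0.13 at 100 nM (adjusted p = 0.00294), and only the 10 nM value passed 1.5-fold. Without control replicate 1 the 10 nM value was 0.48 and without 10 nM replicate 2 it was 0.52, both under 1.5-fold.

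Mael, which acts in the piRNA pathway against transposons (chr1:166201385-166238744), had only 19 and 20 counts in control, 22 and 36 with 0.3 nM, 32 and 38 with 1 nM, 44 and 35 with 3 nM, 40 and 42 with 10 nM and 44 and 42 with 100 nM. In RPKM this was 2.11 ± 0.0038 (SD, n = 2) in control and 4.58 ± 0.19 with 100 nM. Its fold change had the largest point estimate of the 10 genes at every dose. At 0.3 nM (0.64 ± 0.33, adjusted p = 0.688) and 1 nM (0.84 ± 0.32, adjusted p = 0.217) it did not pass the test. All treated libraries lay above both controls, with log2 fold changes of 1.201 ± 0.32 with 3 nM (adjusted p = 0.0146), 1.08 ± 0.31 with 10 nM (adjusted p = 0.0168) and 1.11 ± 0.31 with 100 nM (adjusted p = 0.0102). The call at 100 nM was lost without control replicate 1 (adjusted p = 0.0567), control replicate 2 (0.065) or 100 nM replicate 1 (0.0616), with log2 values between 1.07 and 1.11. At 10 nM it was lost without control replicate 1 (0.0846), control replicate 2 (0.0965) or 10 nM replicate 2 (0.0901).

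Stk31, a testis-enriched protein with a Tudor and a kinase-like domain (chr6:49395604-49469502), had 4.74 ± 0.87 RPKM in control (SD, n = 2), 5.35 ± 0.59 with 0.3 nM, 7.13 ± 0.97 with 1 nM, 6.58 ± 0.45 with 3 nM, 7.06 ± 0.48 with 10 nM and 6.05 ± 0.70 with 100 nM. Both libraries lay above both controls at 1, 3, 10 and 100 nM. It passed the adjusted p at 10 nM, with 0.58 ± 0.17 (adjusted p = 0.015), just under 1.5-fold, and was 0.35 ± 0.17 with 100 nM (adjusted p = 0.136). The dose slope of 0.08 ± 0.028 (adjusted p = 0.0288) was lost under 8 of 22 alternatives, including the fit without control replicate 2 (adjusted p = 0.222), without 0.3 nM replicate 2 (0.0773), without 10 nM replicate 1 (0.0608) and without 100 nM replicate 1 (0.174). Within the 8 libraries of control, 1, 10 and 100 nM its adjusted p was 0.0845.

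**Figure D3:**
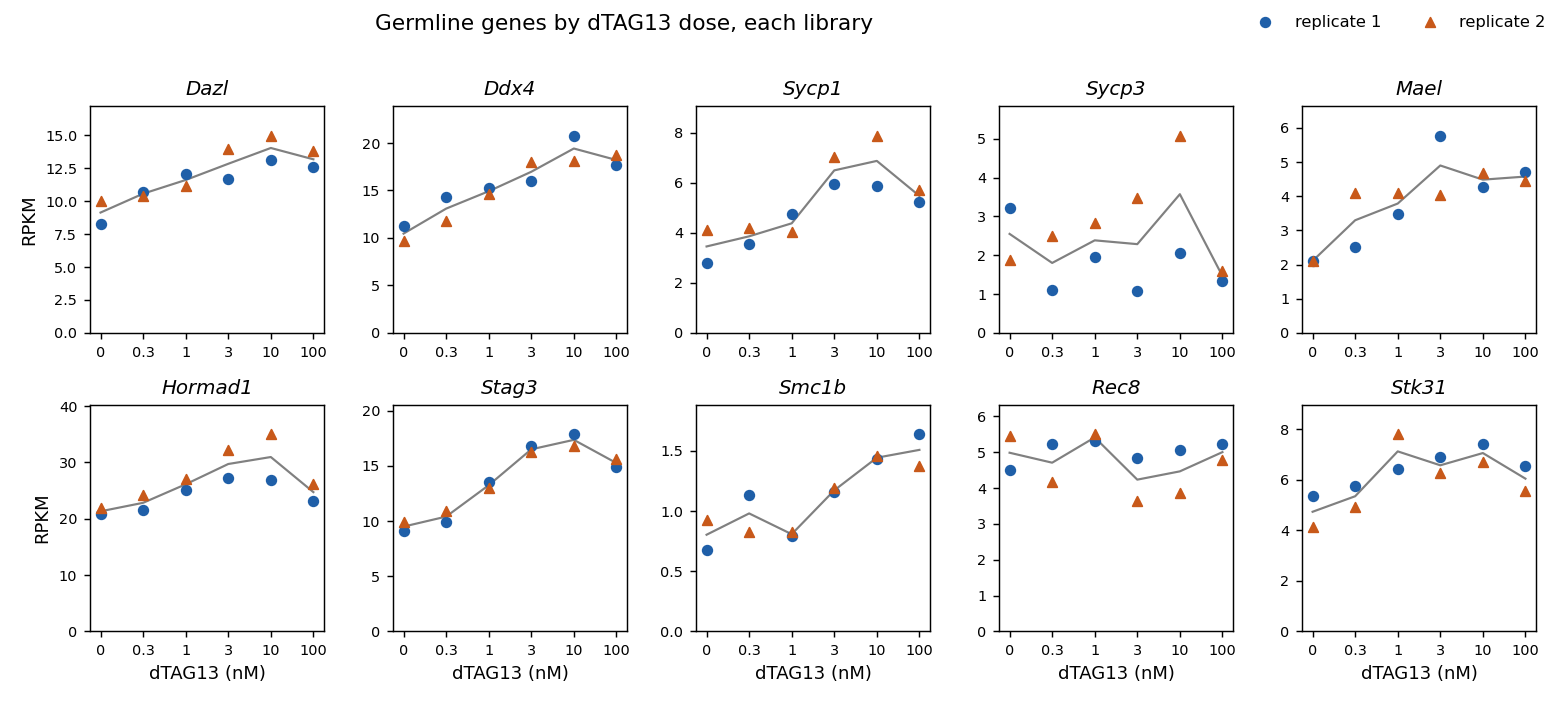
RPKM of each germline gene (y axis, from 0) at each dTAG13 dose (x axis, in rank order), with a blue circle for replicate 1, an orange triangle for replicate 2 and a grey line through the means. Ddx4, Dazl and Mael lie above both controls in every treated library, and the Sycp3 replicates spread as widely as its doses.

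Of the chromosome-axis and synapsis genes, Sycp1 rose, and Hormad1 rose by a smaller fold, while Sycp3 did not pass the test. Sycp1, the transverse filament of the synaptonemal complex (chr3:102818499-102936100), had 2.80 and 4.12 RPKM in control, 3.54 and 4.19 with 0.3 nM, 4.75 and 4.02 with 1 nM, 5.96 and 7.04 with 3 nM, 5.87 and 7.89 with 10 nM and 5.25 and 5.71 with 100 nM. The groups overlapped control at 0.3 and 1 nM and lay above it from 3 nM. The log2 fold change was 0.91 ± 0.19 with 3 nM (adjusted p = 0.0028), 0.98 ± 0.19 with 10 nM (adjusted p = 0.000479) and 0.66 ± 0.20 with 100 nM (adjusted p = 0.0149). The last call was lost without control replicate 1 (0.41, adjusted p = 0.227) or without 100 nM replicate 2 (0.60, adjusted p = 0.107).

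Sycp3, an axial element protein of the same complex (chr10:88459587-88473236), was counted at 6 to 33 read pairs per library. It had 21 and 13 counts in control, 7 and 16 with 0.3 nM, 13 and 19 with 1 nM, 6 and 22 with 3 nM, 14 and 33 with 10 nM and 9 and 11 with 100 nM. Its replicates differed by more than its groups at several doses, and only at 100 nM did both libraries lie below both controls, where 31.2% of tested genes did (log2 fold change -0.78 ± 0.56, adjusted p = 0.348). At this depth no change was detectable. Sycp3 was the only germline gene whose exons overlapped another gene's, sharing 80 bases with Chpt1 on the opposite strand. Chpt1 had a log2 fold change of -0.79 ± 0.28 at 100 nM (adjusted p = 0.0407). The counting did not use the strand and left out pairs that fell on both genes, so reads from the overlap are uncertain.

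Hormad1, a HORMA-domain protein of the meiotic axis (chr3:95559677-95587860), had the highest level of the 10 genes, 20.8 and 21.9 RPKM in control. It had 21.5 and 24.2 with 0.3 nM, 25.2 and 27.1 with 1 nM, 27.2 and 32.3 with 3 nM, 26.9 and 35.0 with 10 nM and 23.2 and 26.2 with 100 nM. From 1 nM on all libraries lay above control, though the 100 nM pair was nearest to it. The change passed the adjusted p at 3 nM (0.48 ± 0.12, adjusted p = 0.0122) and 10 nM (0.54 ± 0.12, adjusted p = 0.00254), under 1.5-fold both times, and not at 100 nM (0.21 ± 0.12, adjusted p = 0.234). Its slope of 0.07 ± 0.021 (adjusted p = 0.00821) was lost without 100 nM replicate 2 (adjusted p = 0.0808).

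Among the meiotic cohesin genes, Stag3 rose, Smc1b passed the test by less and not under every fit, and Rec8 did not pass it. Stag3, the meiotic STAG subunit (34 exons at chr5:138280509-138312393), had 9.06 and 9.93 RPKM in control, 9.89 and 10.9 with 0.3 nM, 13.5 and 12.99 with 1 nM, 16.8 and 16.2 with 3 nM, 17.9 and 16.8 with 10 nM and 14.9 and 15.6 with 100 nM. It overlapped control at 0.3 nM and lay well apart from 1 nM on. The log2 fold change was 0.48 ± 0.098 at 1 nM (adjusted p = 0.00728), 0.80 ± 0.097 at 3 nM (adjusted p = 3.54e-06), 0.87 ± 0.096 at 10 nM (adjusted p = 2.41e-07) and 0.68 ± 0.097 at 100 nM (adjusted p = 6.13e-06). Stag3 had the smallest standard errors of the 10 genes and the smallest adjusted p of the dose slope (0.17 ± 0.016, adjusted p = 7.14e-09).

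Smc1b, the meiotic SMC subunit (chr15:85064689-85131957), had the lowest RPKM of the 10 genes. Its libraries gave 16 and 23 counts in control, 26 and 19 with 0.3 nM, 19 and 20 with 1 nM, 23 and 27 with 3 nM, 35 and 34 with 10 nM and 40 and 34 with 100 nM. The RPKM groups lay above control from 3 nM. The change was 0.84 ± 0.32 with 10 nM (adjusted p = 0.0717) and 0.90 ± 0.31 with 100 nM (adjusted p = 0.0394). The call at 100 nM was lost in each fit that left out 1 control or 100 nM library: control replicate 1 (adjusted p = 0.231), control replicate 2 (0.0641), 100 nM replicate 1 (0.202) and 100 nM replicate 2 (0.0685). In the fit of all genes with a count, which has no RPKM minimum, the 100 nM value was 0.82 (adjusted p = 0.0796) and the slope 0.17 (adjusted p = 0.0115). Its slope in the first fit, 0.19 ± 0.053 (adjusted p = 0.00676), was lost without control replicate 1 (adjusted p = 0.0519).

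Rec8, the meiotic kleisin that holds sister chromatids together (chr14:55618166-55625395), had 4.99 ± 0.67 RPKM in control (SD, n = 2) and 5.01 ± 0.33 at 100 nM. At the doses between, its means ran from 4.24 ± 0.85 at 3 nM to 5.42 ± 0.13 at 1 nM, and its libraries overlapped control at every dose. The log2 fold change at 100 nM was 0.00222 ± 0.22 (adjusted p = 0.998). At 42 to 69 counts per library the standard errors, 0.22 to 0.23 at each dose, were near those of Sycp1, 0.19 to 0.21. Sycp1 was called from 3 nM on, at log2 fold changes of 0.66 to 0.98. A smaller change in Rec8 could have gone uncalled.

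The 5 listed genes of the cohesin complex of somatic cells, which need not be absent from meiosis, had control means of 23.5 to 97.1 RPKM. These lay above those of all 3 meiotic subunits. None was called at 100 nM, where 4.37% of tested genes were called higher and 6.83% lower. Rad21 and Stag1 were past the adjusted p on the lower side, as were 13.3% of tested genes (10.1% on the higher side). Smc1a and Smc3, the SMC subunits, both had a log2 fold change of 0.01 (adjusted p = 0.941 and 0.897). Rad21, the somatic kleisin, was at -0.21 (adjusted p = 0.00923) and Stag1 at -0.19 (adjusted p = 0.0461), while Stag2 was at 0.18 (adjusted p = 0.0524). The summed RPKM of the 5 genes was 267 to 277 in control and 254 to 264 at 100 nM.

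Counting libraries rather than fits, both libraries lay above both controls in 3 of 10 germline genes with 0.3 nM (18.5% of tested genes), 6 with 1 nM (22.2%), 8 with 3 nM (24.3%), 8 with 10 nM (27.4%) and 8 with 100 nM (30.5%). Summed over the 10 genes, the libraries had 68.1 to 70.1 RPKM in control, 75.8 to 78.0 with 0.3 nM, 88.7 to 90.9 with 1 nM, 97.3 to 106 with 3 nM, 105 to 115 with 10 nM and 93 to 97.9 with 100 nM. No pair of neighbouring doses overlapped up to 3 nM, the 3 and 10 nM groups overlapped, and the 100 nM libraries lay below those of 10 nM and overlapped those of 3 nM.

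Whether the highest dose fell back was examined in a contrast of 100 against 10 nM, chosen after the data were seen. No germline gene passed the adjusted p of edgeR's quasi-likelihood test, the only one run on this contrast, and 2 passed an unadjusted p of 0.05, Hormad1 at -0.32 ± 0.12 (adjusted p = 0.223) and Sycp3 at -1.26 ± 0.53 (adjusted p = 0.315). A lower value at 100 nM was seen in 7 of 10, with a median log2 difference of -0.14 beside -0.0017 for tested genes, 49.5% of which were higher at 100 nM. Of tested genes, 0.791% were called lower and 0.193% higher in that contrast. A fall between 10 and 100 nM was therefore not shown for any single gene.

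Because the 0.3 and 3 nM libraries may have been handled apart, which their repeated sample numbers leave possible and the labels do not state, 3 nM was also compared with 0.3 nM directly, again after the data were seen. Sycp1 rose by 0.75 ± 0.19 (adjusted p = 0.0186) and Stag3 by 0.66 ± 0.097 (adjusted p = 8.94e-05), 2 of 10 genes where 0.747% of tested genes were called higher and 1.2% lower. A higher value at 3 nM was seen in 9 of the 10 (49.7% of tested genes), with a median log2 difference of 0.38, and Rec8 was the exception at -0.16 ± 0.24. Among the other 8 libraries alone, 5 germline genes were called at 10 nM and 5 at 100 nM, the same numbers as with all libraries.

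The other genes of meiosis and of the piRNA pathway also held more genes called higher than lower. These lists were written with earlier results of these data known, and their genes below a mean of 1 RPKM were taken from a second fit of the 23204 genes with a count, in which 3.37% were called higher and 4.62% lower at 100 nM, and 8.39% rose and 12.1% fell with dose. Of 31 other meiotic genes with counts, 16 averaged 1 RPKM or more. At 100 nM 5 of the 31 were called higher and none lower, where 4.37% and 6.83% of tested genes were. With dose 13 rose (14.9% of tested genes). Dmc1, the meiotic recombinase, went from 4.88 to 14.4 RPKM (1.56, adjusted p = 1.57e-07), Ccdc36, an axis factor for meiotic breaks, from 0.784 to 2.01 (1.35, adjusted p = 0.0113), and Zcwpw1, a reader of histone marks at meiotic breaks, from 5.03 to 11.7 (1.21, adjusted p = 2e-06). The remaining 2, named after their values were seen, were 4930447C04Rik, a synaptonemal complex gene, at 0.84 and Tex15 at 0.61. The median log2 fold change of the list, over both fits, was 0.61, beside 0 for all genes of the first fit and 0.088 for all of the second. Genes below a mean of 1 RPKM, mostly with few counts and wide errors, weigh as much in the list median as the others. Ccdc36, under 1 RPKM in control, entered the first fit only through its treated libraries, and in the second fit it was at 1.26 (adjusted p = 0.0059). With every gene taken from the second fit, chosen after the data were seen, 4 of the 31 were called higher and 0 lower.

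Of 20 piRNA pathway genes, 12 averaged 1 RPKM or more. At 100 nM 6 of the 20 were called higher and none lower, where 4.37% and 6.83% of tested genes were. With dose 9 rose and 1 fell (14.9% and 17.3% of tested genes). The median log2 fold change of this list at 100 nM, again over both fits, was 0.87. It too gives equal weight to genes below a mean of 1 RPKM, so it does not describe the better-measured genes alone. Tdrkh, a Tudor-domain partner of PIWI proteins, was at 1.32 (adjusted p = 0.0322), Tdrd5 at 0.96 (adjusted p = 0.00808) and Piwil2, a PIWI protein, at 0.92 (adjusted p = 1.07e-05). Tdrkh, at 0.633 RPKM in control, also entered the first fit only through its treated libraries, and in the second fit it was at 1.235 (adjusted p = 0.0237). With every gene taken from the second fit 4 of the 20 were called higher and 1 lower. Tdrd12, named after its value was seen, was at -0.58 (adjusted p = 0.0139), just under 1.5-fold, and was the gene that fell with dose.

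Of 12 genes of germ cell specification, 4 were called lower and 1 higher at 100 nM, where 6.83% and 4.37% of tested genes were: Tcl1 fell from 14.5 to 1.81 RPKM (-3.00, adjusted p = 2.92e-10), Prdm1, a repressor that starts the germ cell program, from 1.06 to 0.237 (-2.22, adjusted p = 2.95e-06) and Kit, the stem cell factor receptor, from 12.1 to 3.38 (-1.84, adjusted p = 2.86e-10). Lin28a was at -0.64 and Tfap2c at 0.69, both named after their values were seen. The paper reports the fall of Tcl1 among pluripotency factors of mES cells, so this list is not one of germ cells alone. None of 10 spermatid genes was called, and only 1 of them averaged 1 RPKM or more. In the second fit 3.37% of genes were called higher and 4.62% lower at 100 nM. The summed RPKM of the 10 spermatid genes was 2.47 to 2.98 in control and 4.15 to 4.36 at 100 nM, far below the germline genes.

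Of 25 PRC1.6 and DNA methylation genes, none was called higher and 1 lower at 100 nM, where 4.37% and 6.83% of tested genes were. The 1 called was Zbtb38, a zinc-finger protein that binds methylated DNA, at -0.61 (adjusted p = 0.00694). The median log2 fold change of this list was -0.02. With every gene taken from the second fit 1 was called higher and 3 lower. With dose 7 rose (14.9% of tested genes) and 8 fell (17.3%), and at 3 nM 1 was called higher, Dnmt3b, a de novo DNA methyltransferase, at 0.601 ± 0.066 (adjusted p = 6.28e-07), named after its value was seen. Without the fold minimum at 100 nM, 4 were higher (10.1% of tested genes) and 5 lower (13.3%).

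**Figure D4:**
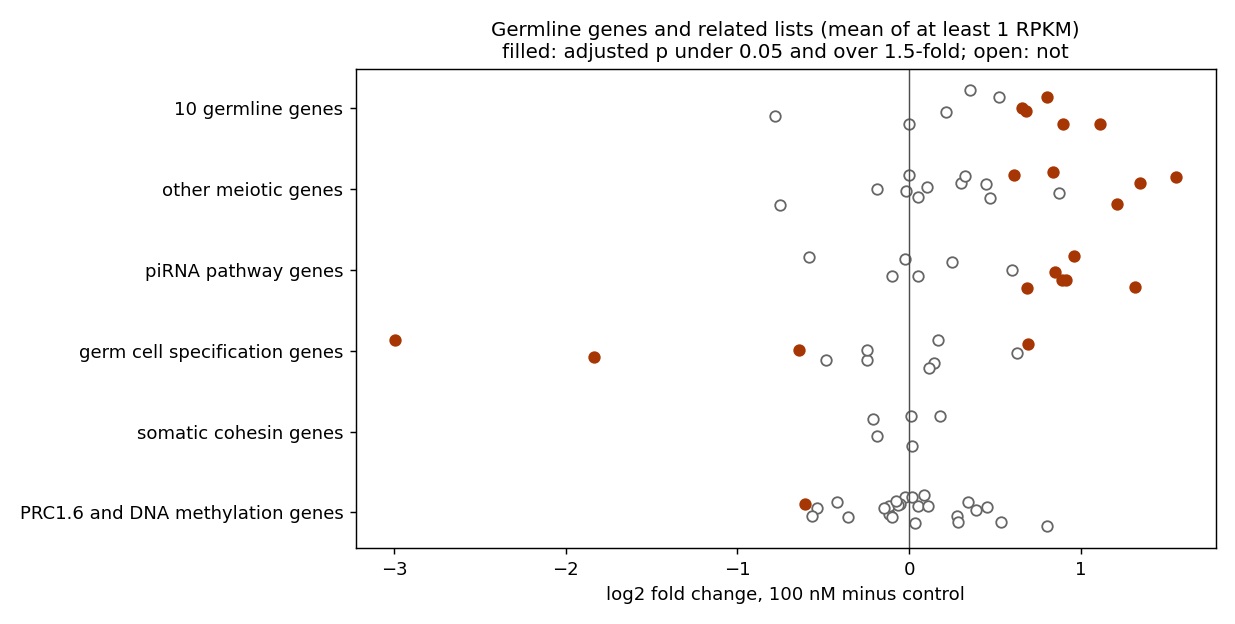
Log2 fold change at 100 nM against control (x axis) for each gene with a mean of at least 1 RPKM, by list, filled where called; vertical spread within a list only separates points. The 5 called germline genes lie to the right, as do the called meiotic and piRNA pathway genes, while 3 of the 4 called germ cell specification genes shown lie to the left.

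Few markers of other cell types were called at 100 nM. Of tested genes, 4.37% were called higher and 6.83% lower there, and in the second fit 3.37% and 4.62%. Lists of 6 to 8 genes are too short for single calls to be set apart from these shares. At 100 nM 1 of 7 primitive endoderm markers was called higher, Pdgfra (2.28, adjusted p = 0.000679), and their summed RPKM was 1.84 to 2.29 in control and 2.53 to 2.87. Of 8 trophectoderm markers, Cdx2 was higher (3.10, adjusted p = 2.4e-06) and Krt8 lower (-2.02, adjusted p = 7.24e-07), with sums of 27.2 to 27.3 in control and 25.0 to 25.8. With every gene taken from the second fit 1 was called higher, Cdx2 (3.02, adjusted p = 2.89e-13), which is under 1 RPKM in control, and 2 lower. No 2-cell-like marker of 8 was called, with sums of 3.73 to 5.81 in control and 2.73 to 3.30 with 100 nM. No fibroblast marker of 6 was called either. Their sums were 1.16 to 1.32 in control and 1.67 to 2.30 with 100 nM, without overlap. At 0.3, 1 and 3 nM these sums lay below both controls, and at 10 nM they overlapped control. The median log2 fold change of the 6 at 100 nM was 1.42, with Thy1 lower (-0.82). Only Col1a1 rose with dose (adjusted p = 0.0333), at 2 to 19 counts in the control and 100 nM libraries, and 8.39% of genes in the second fit rose. Col1a1 and Thy1 were named after their values were seen. No listed marker was at 0 in all libraries. The part of such cells in the germline values was not tested.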

How the data were processed

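Total RNA of mES cells was extracted with Trizol and made into libraries with a stranded SMART-Seq kit. The authors deposited raw counts of read pairs per gene symbol, made per the labels and the file header with Trim Galore, HISAT2 (mm10) and featureCounts 2.0.1, without strand and without multi-mapped pairs. All 12 libraries were used, grouped by the labels, with 4663484 to 6375582 counts each. RPKM was computed with TMM-scaled library sizes and the deposited exon lengths. The 6 dose groups were fitted together with edgeR 4.0.16 (R 4.3.3, limma 3.58.1), and each dose was compared with control by the quasi-likelihood test, with p-values adjusted by Benjamini-Hochberg over the 11378 genes that averaged 1 RPKM or more, or over 23204 genes with a count for listed genes below that. A linear contrast over dose rank gave the slope. Calls needed an adjusted p under 0.05 and a change over 1.5-fold, slopes the adjusted p alone. The steps were tested on simulated data. Errors of log2 values are standard errors. The p-values rest on the spread between the 2 libraries of a group, pooled over the 6 groups and drawn toward that of other genes. The labels do not give the separate origin of these libraries, while the paper describes its expression plots as from 2 independent experiments. Replicates differed by more than sampling noise in every group (chi-square per degree of freedom 1.96 to 15.6). That value covered genes with 10 or more counts in the group, on raw totals and with Rn45s included. It was highest at 3 nM, where Rn45s took 10.5 and 19.0% of the 2 libraries, and the part of Rn45s in it was not tested. In the fit, the common coefficient of variation between replicates beyond counting noise was 6.2%.

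The germline genes and lists were chosen with earlier results of these data known. All 10 germline genes were named, of other lists the 3 genes with the largest change among those called at 100 nM, all somatic cohesin genes, genes with overlapping exons and Smarca4. Alternatives covered DESeq2 1.42.0, a likelihood ratio test, normalization, filters, fold minimum, dose scale, a replicate block, pairwise fits and leaving out each library. Promoter windows came from RefSeq on GRCm38.p6.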

Additional observations from a re-analysis of the deposited data

How the results depend on the processing

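The number of germline genes with a rising slope stayed at 7 or 8 under each of 22 alternatives, and none was called lower under any alternative run. The number called higher at 1 nM was 0, and became 2 without a fold minimum, 1 with the likelihood ratio test and 1 without the RPKM filter. With a 2-fold minimum it was 1 for each of 3, 10 and 100 nM, and without the RPKM filter it was 3 at 100 nM, where Sycp1 (0.58) fell under 1.5-fold and Smc1b had an adjusted p of 0.0796. Leaving out 1 library gave 2 to 5 genes for 3 nM, 4 to 6 for 10 nM and 2 to 5 for 100 nM. Ddx4 and Stag3 kept their calls at 10 and 100 nM under each alternative except the 2-fold minimum. With DESeq2, Smc1b at 100 nM (adjusted p = 0.152), Mael at 10 nM (0.0614) and the Stk31 slope (0.0981) were lost. Some values that were not called changed sign: Rec8 at 100 nM was -0.0792 without the RPKM filter, -0.0179 with filterByExpr and between -0.13 and 0.15 with 1 library left out, Rec8 at 10 nM lay between -0.37 and 0.0207 and its slope between -0.03535 and 0.00368, and Sycp3 lay between -0.30 and 0.99 at 10 nM and between -0.0953 and 0.0306 in slope. The cause of the lost calls was not tested. With the replicate number as a block, Rec8 at 100 nM was -0.00219 and the numbers called (4 for 3 nM, 5 for 10 nM, 5 for 100 nM) and of rising slopes (8) were the same as without it. Pairing of libraries by replicate number was not seen: in 15 pairs of groups, 0 correlations of deviations were over 0.1 (-0.12 to 0.098). Counting noise in single libraries lowers such correlations, so they cannot decide whether libraries of 1 replicate number were handled together. Depth limits Smc1b, Sycp3 and Mael most, with 6 to 44 counts per library.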
